A study of Rattus norvegicus with 16 samples.

Results

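The proteasome is the main protease for ubiquitin-tagged proteins in the cytosol and nucleus, and its subunits were followed here at the RNA level in rat liver. Members were the genes whose array symbol begins with Psma, Psmb, Psmc, Psmd, Psme or Psmf and a number. This rule found 41 of the 13438 named genes on the array, of which Psmc3ip and Psme3ip1 share only the start of the name and are not proteasome components, leaving 39 members. Where a gene had several probe sets, the brightest over the 16 arrays stood for it (the members have 54 in all), and all 39 were among the 11434 genes tested. They comprised 13 genes of the constitutive 20S core (Psma1 to Psma7, Psmb1 to Psmb5 and Psmb7), the 3 immunoproteasome subunits Psmb8, Psmb9 and Psmb10, 22 regulatory genes (Psmc1 to Psmc6, Psmd1 to Psmd14, Psme1 and Psme4) and the inhibitor gene Psmf1. Psmb6, Psma8, Psmb11, Psme2 and Psme3 were not analysed here.

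The study used livers of male F344 rats, an inbred strain, labelled as 4 weeks old and reared for 3 weeks under 1 of 4 regimes with 4 rats each. Control rats on the normal diet ate basal rodent chow (CE-2), drank water from which the dissolved hydrogen had been stirred out and lived in air. Hydrogen-treated rats on the normal diet ate that chow, drank water rich in hydrogen, 0.7 mM dissolved, and breathed air containing 2% hydrogen. The 2 remaining groups received the same pair of water and air regimes with the CDAA diet, which lacks choline and supplies L-amino acids in place of protein and is known to cause fatty liver and later fibrosis in rats. The comparisons ask how diet and hydrogen, alone and jointly, changed liver RNA. Each liver gave 1 array. Hydrogen by water and by air were always given together and cannot be told apart. The p-values of single genes set a difference against the spread between rats within groups, estimated over all 4 groups together.

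As background, the 20S core is a barrel of 4 stacked rings. The outer alpha rings gate the channel, and the inner beta rings carry the catalytic sites of Psmb5, Psmb6 and Psmb7. The 19S cap binds ubiquitin chains, unfolds substrates with its ring of Psmc ATPases and feeds them into the barrel. Interferon is known to induce Psmb8, Psmb9 and Psmb10, which take the places of Psmb5, Psmb6 and Psmb7 and yield peptides suited to MHC class I. When proteasome activity is short, the transcription factor NRF1 (Nfe2l1) is known to raise the constitutive subunits together through antioxidant response elements. In a liver these genes are expressed in hepatocytes and in the other cells, and in such bulk tissue a change in the number of cells of a type and a change in RNA per cell cannot be told apart.

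Hepatocyte markers had high signal in every group, with a mean over 9 markers between 12.35 and 12.67 log2 on the 16 arrays, and 2 rose and 1 fell with the diet in control rats and 2 rose and 3 fell in hydrogen-treated rats. Among them Tat, an enzyme of tyrosine breakdown, differed by -1.38 log2 under hydrogen on the CDAA diet (95% interval -2.44 to -0.33, limma adjusted p = 0.278) and was not called. Over all genes tested, 27.3% rose and 13.3% fell with the diet in control rats, and 32.1% and 17.3% in hydrogen-treated rats. These shares stand behind every count of risen and fallen markers in this paragraph. Correlations between arrays ran from 0.9586 to 0.9969 and 0 pairs of arrays were identical. On the first principal component, which separated the diets, control rat 4 on the normal diet lay at -13.4 while the other 7 normal-diet arrays lay between -35.1 and -32.0, and the 8 CDAA arrays lay between 23.9 and 40.1. The counts of members without this rat are given beside the first result. Of the other cell types, macrophage markers averaged 7.81 to 8.38 log2 in control and 7.94 to 8.14 in hydrogen-treated rats on the normal diet, against 8.40 to 8.63 and 8.47 to 9.00 on the CDAA diet. These rose with the diet in 5 of 9 genes in control rats, where 1 fell, and in 7 of 9 in hydrogen-treated rats, stellate and endothelial markers in 4 and 7 of 9, and bile duct markers in 2 and 2 of 4. These counts moved with the scaling: after a further quantile normalization, macrophage markers rose in 3 and 6 of 9 and stellate and endothelial markers in 2 and 4, and with arrays centred on the median of the tested probe sets, an alternative chosen after seeing the data, in 4 and 5 and in 3 and 4. The 5 rises of macrophage markers in control rats became 2 without normal-diet rat 2 or CDAA rat 3 and 3 without normal-diet rat 1 or CDAA rat 4. The 4 of stellate and endothelial markers became 2 without normal-diet rat 2, CDAA rat 3 or CDAA rat 4, and the 7 in hydrogen-treated rats became 4 without CDAA rat 1. T, B and NK cell markers lay between 4.40 and 4.70 log2 on all arrays, with 2 of 11 higher and 3 lower in control rats and 2 higher and 2 lower in hydrogen-treated rats, and with 1 to 2 higher and 1 to 3 lower, and 1 to 2 and 2 to 3, when each array was left out. Klrd1, an NK cell receptor gene, averaged 3.34 to 3.62 log2 in the 4 groups, and Sox9, a bile duct factor, 2.75 to 2.95, both below 3.68 log2, the line used to filter low signals, and neither was tested. What part these cells have in the results below was not tested.

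The promoters of 4 members are shown because the results turn on them: Psmb10, Psmb8, Psmd9 and Psmc6. Of the immunoproteasome subunits Psmb10 and Psmb8, Psmb10 was called with the diet in hydrogen-treated rats only and Psmb8 in neither comparison. Psmd9 and Psmc6 are the members with the largest falls. The windows are from RefSeq on GRCr8, 5′ to 3′ on the strand of the gene, and run from 250 bases before the transcript start to 10 bases after it. Capitals mark matches, on either strand, to the interferon-stimulated response element core (GAAANNGAAA), the gamma-activated site core (TTCNNNGAA), the antioxidant response element core (TGACNNNGC) and the CCAAT box (CCAAT). They lie at chr19:50743283-50743542 (minus strand) for Psmb10, chr20:4657022-4657281 (minus strand) for Psmb8, chr12:39018255-39018514 (minus strand) for Psmd9 and chr15:21022064-21022323 (plus strand) for Psmc6.
Psmb10: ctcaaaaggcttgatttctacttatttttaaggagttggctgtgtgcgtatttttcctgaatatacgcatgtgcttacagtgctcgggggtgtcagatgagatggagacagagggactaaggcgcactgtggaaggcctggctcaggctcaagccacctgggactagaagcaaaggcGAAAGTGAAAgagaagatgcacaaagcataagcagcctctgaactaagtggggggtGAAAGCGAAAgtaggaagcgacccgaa
Psmb8: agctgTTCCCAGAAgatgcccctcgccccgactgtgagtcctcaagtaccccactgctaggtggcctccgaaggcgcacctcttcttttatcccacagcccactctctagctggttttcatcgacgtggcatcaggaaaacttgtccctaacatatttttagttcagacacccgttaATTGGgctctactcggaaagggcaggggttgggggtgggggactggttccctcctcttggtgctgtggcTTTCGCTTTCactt
Psmd9: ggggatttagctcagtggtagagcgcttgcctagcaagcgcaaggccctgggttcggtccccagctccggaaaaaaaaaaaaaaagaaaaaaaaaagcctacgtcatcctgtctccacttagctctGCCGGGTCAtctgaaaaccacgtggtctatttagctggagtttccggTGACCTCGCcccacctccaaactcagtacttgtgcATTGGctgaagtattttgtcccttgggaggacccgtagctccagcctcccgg
Psmc6: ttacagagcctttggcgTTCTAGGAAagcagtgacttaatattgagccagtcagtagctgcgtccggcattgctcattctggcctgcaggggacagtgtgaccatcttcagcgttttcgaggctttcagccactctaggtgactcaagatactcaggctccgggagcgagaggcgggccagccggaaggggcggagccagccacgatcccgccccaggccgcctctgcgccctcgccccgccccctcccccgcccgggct
The Psmb10 window held 2 matches to the interferon-stimulated core, at 73 and 17 bases before the start. The Psmb8 window held such a match 4 bases before the start, a CCAAT box at 73 and a gamma-activated match at 245 bases before it. The Psmd9 window held 2 antioxidant cores, at 124 and 77 bases before the start, and a CCAAT box at 42. The Psmc6 window held a gamma-activated match 233 bases before the start.

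Over the windows of 250 bases before to 50 after the start, 35 of the 39 members could be matched, against 27457 windows of all genes. The interferon-stimulated core was found in 5 members (14.3%; Psma4, Psmb3, Psmb8, Psmb10 and Psmd7) and in 3.77% of all windows. The antioxidant core was found in 7 (20%; Psma3, Psmb2, Psmb5, Psmd1, Psmd3, Psmd9 and Psme4) and in 12.2% of all. A CCAAT box was found in 19 (54.3%), of which 9 were among the 12 core genes and 7 among the 19 regulatory genes matched, and in 37.7% of all. The gamma-activated core was found in 4 (11.4%; Psmb8, Psmc6, Psmd3 and Psmd7) and in 8.68% of all. Matches of different motifs shared bases in 1 case among the members. A match is a description of the letters only.

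The diet left most of the proteasome close to its level on chow. In control rats 4 of the 39 members rose (Psma6, Psmd7, Psmd8 and Psmd13) and 7 fell (Psma2, Psmc6, Psmd1, Psmd5, Psmd9, Psmd10 and Psmf1). Among all genes tested, 27.3% rose and 13.3% fell. In hydrogen-treated rats 2 members rose (Psma6 and Psmb10) and 10 fell (Psma1, Psma2, Psma5, Psmb7, Psmc5, Psmc6, Psmd1, Psmd5, Psmd9 and Psmd10), where 32.1% of all genes rose and 17.3% fell. A gene was called risen or fallen when its limma p-value, adjusted by Benjamini-Hochberg over all probe sets tested, was under 0.05. The comparisons use different arrays, and 7 members, of the 11 called in control rats and the 12 called in hydrogen-treated rats, were called in the same direction in both: Psma6 higher, and Psma2, Psmc6, Psmd1, Psmd5, Psmd9 and Psmd10 lower. They made up 17.9% of the members, against 32.7% of all genes, and 23 members (59.0%) were called in neither, against 42.7% of all genes.

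The shifts were small. The median log2 difference between the diets over the members was -0.002 in control rats and -0.06 in hydrogen-treated rats, against 0.04 and 0.05 over all genes. The median size, without sign, was 0.10 and 0.12 against 0.17 and 0.20. The 95% interval of the difference lay within 0.5 log2 (1.41-fold) of no change for 36 members in control rats and 35 in hydrogen-treated rats. The same held for 69.2% and 65.6% of all genes. The members outside this window were Psmb10, Psmc6 and Psmd9 in control rats, and those with Psmb9 in hydrogen-treated rats. The median SD between rats of a group was 0.0797 log2 over the members (0.0454 for Psmb2 to 0.23 for Psmb9) and 0.117 over all genes. The members had a higher signal, with a median level of 9.07 log2 against 6.02 over all genes, and the part of signal level in these narrower intervals and SDs was not tested.

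Counts of calls moved with the scaling and with single rats. When each array was centred on the median of its tested probe sets, 1 member rose and 12 fell in control rats and 2 rose and 19 fell in hydrogen-treated rats. Over all genes the share of calls that were rises was then 51.2% and 43.2%, against 67.2% and 64.9% as deposited and 58.0% and 53.3% after a further quantile normalization, which left 2 members risen and 8 fallen in control rats and 2 and 14 in hydrogen-treated rats. The median difference over all genes, 0.04 and 0.05 log2 as deposited, was -0.03 and -0.05 with that centring and 0.01 and 0.001 after the quantile normalization. In control rats the 11 calls became 7 without rat 1 of the normal diet or without rat 1 of the CDAA diet, and the 7 falls became 4 without that CDAA rat. The 4 rises became 2 without normal-diet rat 1, normal-diet rat 2 or CDAA rat 3, and 1 without CDAA rat 4. Without control rat 4 on the normal diet, 4 members rose and 6 fell. In hydrogen-treated rats the 2 rises became 4 without CDAA rat 4.

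**Figure D1:**
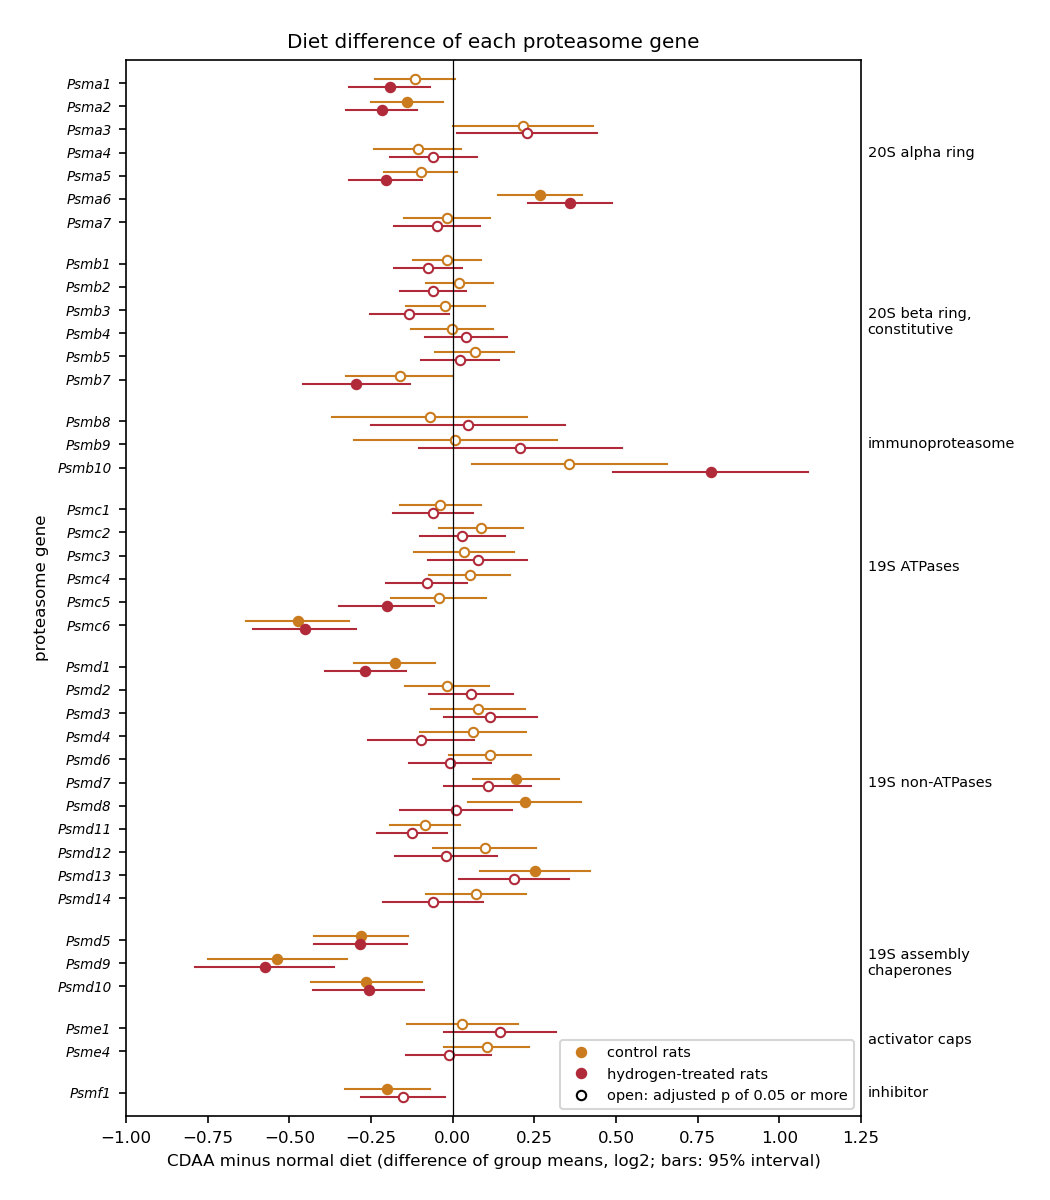
Difference between the CDAA and the normal diet for each of the 39 members (x axis, difference of group means in log2; bars, 95% interval), in control rats (orange) and hydrogen-treated rats (red), 4 rats a group. Filled circles have a limma adjusted p under 0.05; most members sit near 0, while Psmc6 and Psmd9 lie to the left in both comparisons and Psma6 and Psmb10 to the right.

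Within the 20S core, the alpha ring showed its clearest rise in Psma6, a structural subunit of the ring. Its signal in control rats was 10.60, 10.56, 10.66 and 10.70 log2 on the normal diet and 10.85, 10.95, 10.87 and 10.92 on the CDAA diet. In hydrogen-treated rats it was 10.54, 10.50, 10.55 and 10.61 on the normal diet and 10.77, 11.06, 10.89 and 10.92 on the CDAA diet. Every CDAA rat lay above every normal-diet rat. The difference was 0.27 ± 0.06 log2 (SE of the fit) in control rats (limma adjusted p = 0.00264) and 0.36 ± 0.06 in hydrogen-treated rats (adjusted p = 0.000196).

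The other alpha subunits went the other way or stayed below the threshold. Psma2, another alpha ring subunit, fell by 0.14 log2 in control rats (adjusted p = 0.0446, a call that ended in 13 of 25 alternatives, including the omission of any control CDAA rat or of normal-diet rat 1, 3 or 4) and by 0.22 in hydrogen-treated rats (adjusted p = 0.00302). Its signal was 9.85, 9.76, 9.95 and 9.86 log2 in control and 9.86, 9.94, 9.89 and 9.97 in hydrogen-treated rats on the normal diet, against 9.65, 9.72, 9.76 and 9.73 and 9.74, 9.66, 9.71 and 9.68 on the CDAA diet. Only in control rats did the diets overlap, at 9.76. Psma1 and Psma5, alpha subunits too, fell in hydrogen-treated rats by 0.19 (adjusted p = 0.0136) and 0.20 log2 (adjusted p = 0.00496), while the values of -0.12 and -0.10 in control rats were not called. Neither subunit's diet groups overlapped in hydrogen-treated rats. For Psma3, an alpha subunit, the differences of 0.21 (adjusted p = 0.113) and 0.23 (adjusted p = 0.0791) were not called; hydrogen-treated CDAA rat 4 stood highest at 8.02 log2, and the other CDAA rats under hydrogen had 7.49, 7.44 and 7.77. Psma4 and Psma7 lay between -0.11 and -0.02 log2 in both comparisons.

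The constitutive beta ring was nearly flat in control rats. None of its 6 measured genes was called there, with a median difference of -0.01 log2, and 1 of 6 was called in hydrogen-treated rats. That gene was Psmb7, which carries the trypsin-like site. Its signal was 7.83, 7.78, 7.89 and 7.88 log2 in control and 8.04, 7.86, 7.99 and 8.11 in hydrogen-treated rats on the normal diet. On the CDAA diet it was 7.48, 7.80, 7.61 and 7.84 in control and 7.80, 7.68, 7.70 and 7.64 in hydrogen-treated rats. The diets overlapped in control rats and not in hydrogen-treated rats. The difference was -0.16 ± 0.08 log2 in control rats (adjusted p = 0.113) and -0.30 ± 0.08 in hydrogen-treated rats, a 1.23-fold fall (limma adjusted p = 0.00567). Psmb5, which carries the chymotrypsin-like site, differed by 0.07 and 0.02 log2 (95% intervals -0.05 to 0.19 and -0.10 to 0.14), with 9.55 to 9.65 log2 in control and 9.54 to 9.68 in hydrogen-treated rats on the normal diet and 9.64 to 9.72 and 9.51 to 9.75 on the CDAA diet. The structural subunits Psmb1, Psmb2, Psmb3 and Psmb4 ranged from -0.13 to 0.04 log2 in both comparisons and none was called.

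Of the 3 immunoproteasome subunits, none was called in control rats and Psmb10 alone in hydrogen-treated rats, and a difference in response between Psmb10 and Psmb8 or Psmb9 was not tested. Psmb10, which replaces Psmb7, had a signal of 7.58, 7.44, 7.66 and 7.61 log2 in control rats on the normal diet and 7.83, 7.89, 8.01 and 7.99 on the CDAA diet. In hydrogen-treated rats it was 7.47, 7.46, 7.36 and 7.42 on the normal diet and 8.22, 8.79, 8.06 and 7.80 on the CDAA diet. All 8 CDAA rats lay above all 8 normal-diet rats, and hydrogen-treated CDAA rat 2 stood highest. In hydrogen-treated rats Psmb10 rose by 0.79 ± 0.14 log2 or 1.73-fold (limma adjusted p = 0.000329), the largest difference of any member in either comparison. In control rats the difference was 0.36 ± 0.14 log2 or 1.28-fold and missed the threshold (adjusted p = 0.0585). The fit uses 1 spread for all 4 groups. The SD of Psmb10 was 0.0943 and 0.0849 log2 in control rats on the normal and CDAA diets, and 0.0499 and 0.419 in hydrogen-treated rats. Leaving out hydrogen-treated CDAA rat 2 gave 0.60 log2 in hydrogen-treated rats (adjusted p = 8e-05) and 0.36 in control rats (adjusted p = 0.00251). Leaving out hydrogen-treated CDAA rat 4, the lowest of its group, gave 0.93 log2 in hydrogen-treated rats (adjusted p = 4.1e-05) and 0.36 in control rats (adjusted p = 0.0246). The test of whether the diet difference depends on hydrogen gave 0.43 log2 (95% interval 0.01 to 0.85, limma adjusted p = 0.535), so a dependence was not shown. Without hydrogen-treated CDAA rat 2 this value was 0.24 (adjusted p = 0.597) and without rat 4 it was 0.57 (adjusted p = 0.236).

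Psmb8, which replaces Psmb5, and Psmb9, which replaces Psmb6, were not called in either comparison. Psmb8 had 9.76, 9.66, 9.94 and 9.71 log2 in control and 9.64, 9.62, 9.66 and 9.48 in hydrogen-treated rats on the normal diet, and 9.87, 9.36, 9.83 and 9.73 and 9.78, 9.98, 9.66 and 9.17 on the CDAA diet. Its differences were -0.07 (95% interval -0.37 to 0.23) and 0.05 log2 (-0.25 to 0.34). Psmb9 had 9.72, 9.67, 9.93 and 9.60 log2 in control and 9.44, 9.59, 9.56 and 9.42 in hydrogen-treated rats on the normal diet, and 10.04, 9.39, 9.96 and 9.56 and 9.71, 10.05, 9.75 and 9.33 on the CDAA diet. Its differences were 0.01 (-0.30 to 0.32) and 0.21 log2 (-0.10 to 0.52). The diets overlapped for both genes in both comparisons, and the CDAA rats spread more widely than the normal-diet rats, with an SD of 0.233 and 0.345 log2 for Psmb8 against 0.122 and 0.0816. The intervals still allow a change of Psmb9 of up to 0.52 log2 under hydrogen.

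The spread among hydrogen-treated CDAA rats ran alongside that of other genes in part. Rat 2 was highest and rat 4 lowest of this group for Psmb8, Psmb9, Psmb10 and the activator subunit Psme1. The mean of 15 interferon regulators and targets was 6.38, 7.45, 6.09 and 6.79 log2 in rats 1 to 4 of this group, so rat 2 was highest there too, while rat 3 and not rat 4 was lowest. In the other groups this mean lay at 6.46 to 6.57 (control, normal), 6.35 to 6.43 (hydrogen, normal) and 6.53 to 6.84 log2 (control, CDAA). The macrophage marker mean was 8.79, 9.00, 8.68 and 8.47 log2 in rats 1 to 4 of this group, the same order of rats as for Psmb10, and lay above every normal-diet rat. That order was not particular to macrophage markers. The mean of 9 NRF1 and NRF2 regulators, described below, had it too, at 6.86, 6.89, 6.82 and 6.72 log2. In control CDAA rats the macrophage mean was 8.45, 8.40, 8.63 and 8.59 log2, lowest in rat 2, whereas Psmb10 was lowest in rat 1. The part of interferon-responsive genes or of macrophages in the Psmb10 difference was not tested.

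**Figure D2:**
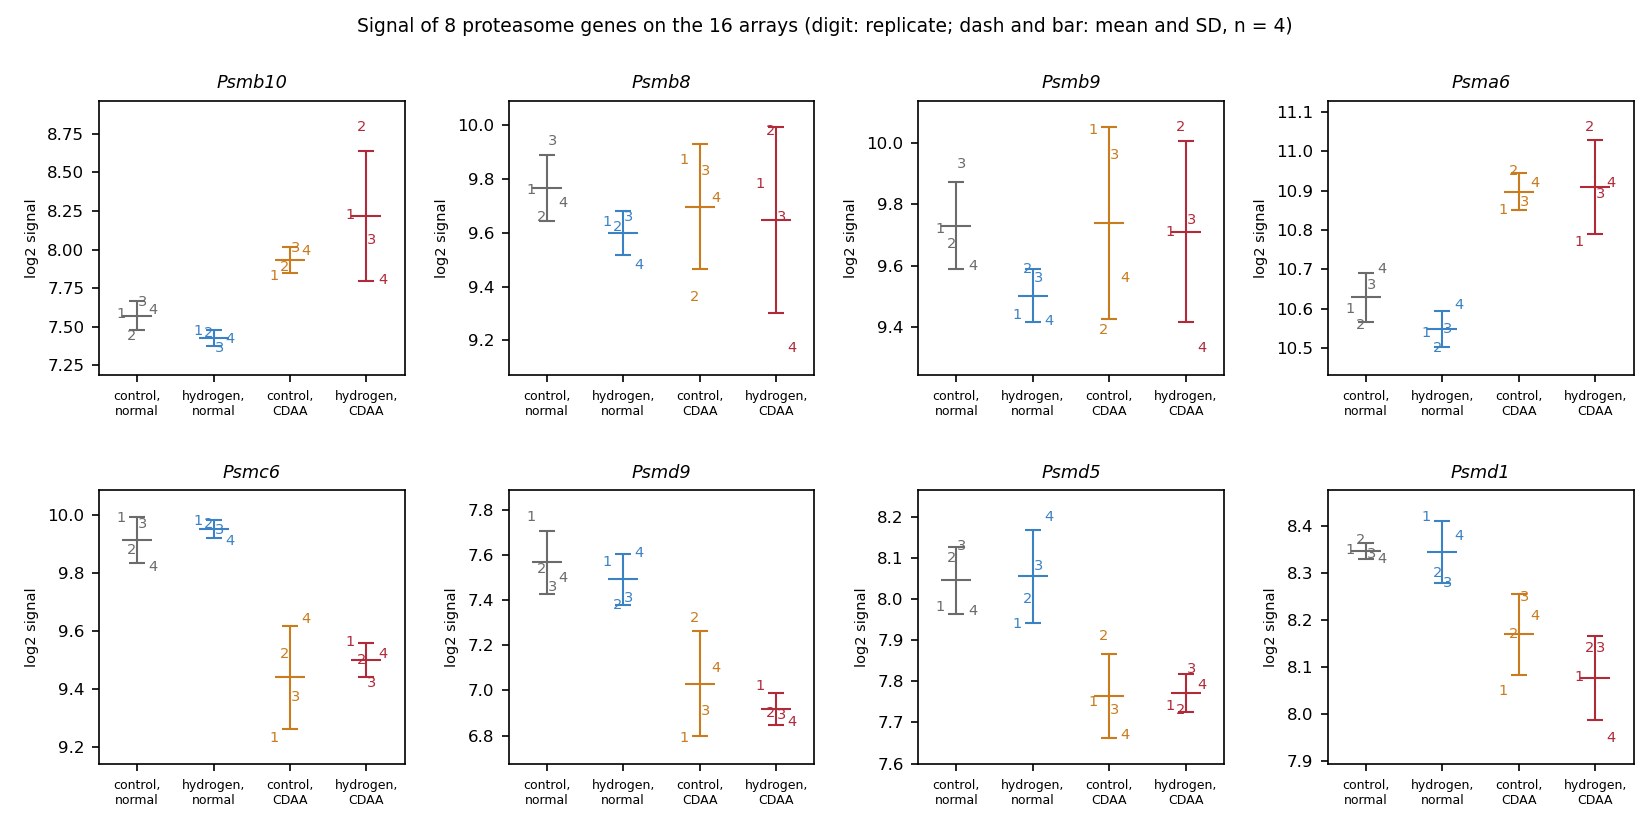
Signal (y axis, log2) of 8 members on each of the 16 arrays, by group; digits give the replicate number, the dash the group mean and the bar 1 SD (n = 4). Psmb10 and Psma6 are higher and Psmc6, Psmd9, Psmd5 and Psmd1 lower in CDAA rats of both regimes, whereas the diets overlap for Psmb8 and Psmb9.

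Whether an immunoproteasome subunit and the subunit it replaces changed by different amounts was asked within each array. Signals of different probes cannot be set against each other, so only the change of the difference between groups is read. The difference Psmb10 minus Psmb7 averaged -0.27 ± 0.05 log2 (SD, n = 4) in control and -0.57 ± 0.12 in hydrogen-treated rats on the normal diet, and 0.25 ± 0.15 and 0.51 ± 0.41 on the CDAA diet. It was higher in all 8 CDAA rats than in any normal-diet rat. The diet change over both hydrogen states was 0.80 log2 (exact two-sided permutation test with hydrogen state as stratum, p = 0.000408, the smallest its 4900 arrangements allow, 0.000816 after adjustment over the pairs tested). Psmb10 and Psmb7 were each called with the diet above, in hydrogen-treated rats only. The members were also chosen with these data known, so this pair test is no separate evidence. The diet change was 0.52 log2 in control rats and 1.08 in hydrogen-treated rats. Each had an exact p = 0.0286, the smallest that 4 against 4 allows, and an adjusted p of 0.0571.

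Psmb8 minus Psmb5 changed by -0.06 log2 with the diet (exact p = 0.609). Its values on the CDAA diet, from -0.36 to 0.22 in control and -0.34 to 0.29 in hydrogen-treated rats, enclosed those of the normal diet, from 0.08 to 0.29 and -0.20 to 0.08, apart from the highest control value. With hydrogen, over both diets, Psmb10 minus Psmb7 changed by -0.02 log2 (exact p = 0.919) and Psmb8 minus Psmb5 by -0.10 (exact p = 0.334, adjusted p = 0.669). Within the normal diet Psmb10 minus Psmb7 was 0.30 log2 lower under hydrogen, with no overlap of the groups (exact p = 0.0286, adjusted p = 0.0571), and on the CDAA diet the change was 0.27 (exact p = 0.2).

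**Figure D3:**
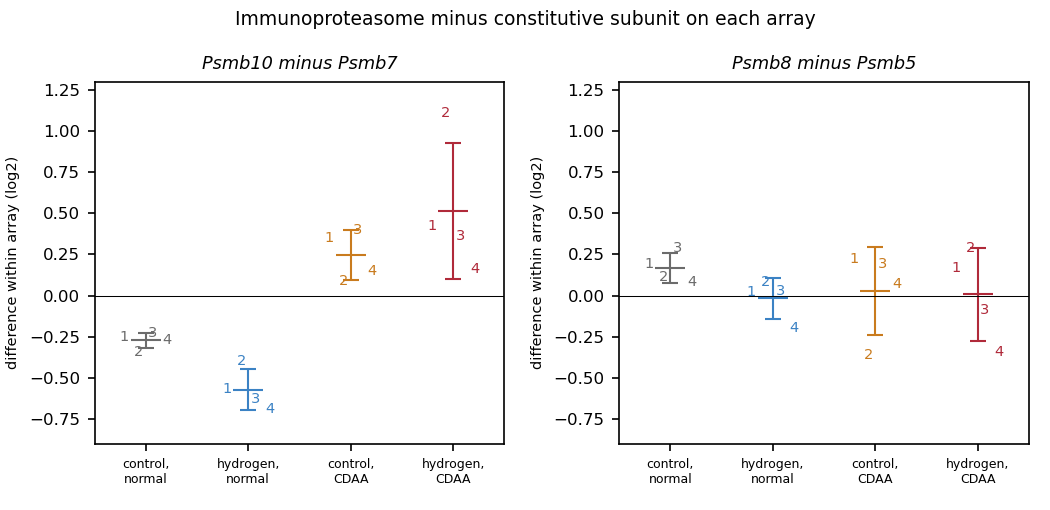
Immunoproteasome subunit minus the constitutive subunit it replaces, within each array (y axis, log2), by group; digits give the replicate number, the dash the mean and the bar 1 SD (n = 4). For Psmb10 minus Psmb7 all CDAA rats lie above all normal-diet rats, and for Psmb8 minus Psmb5 the groups overlap. Only the change between groups is read, not the position against 0.

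In the 19S cap, the largest fall among the ATPases was that of Psmc6, a subunit of the unfolding ring. Its signal in control rats was 9.99, 9.88, 9.97 and 9.82 log2 on the normal diet and 9.23, 9.52, 9.37 and 9.64 on the CDAA diet. In hydrogen-treated rats it was 9.98, 9.97, 9.95 and 9.91 on the normal diet and 9.56, 9.50, 9.42 and 9.52 on the CDAA diet. No CDAA rat reached the lowest normal-diet rat. The fall was 1.39-fold in control rats (limma adjusted p = 0.000164) and 1.37-fold in hydrogen-treated rats (adjusted p = 0.000168). Both further probe sets of Psmc6 fell too, by 0.54 and 0.47 log2 in control rats and by 0.46 and 0.38 in hydrogen-treated rats. Psmc5, an ATPase of the same ring, fell by 0.20 log2 in hydrogen-treated rats (adjusted p = 0.0252) with overlapping groups, since CDAA rats 2 and 4 had 8.36 and 8.38 log2 and rats 1 and 3 had 8.65 and 8.62. That call ended without normal-diet rat 4 (adjusted p = 0.0753), CDAA rat 2 (0.0847) or CDAA rat 4 (0.0752). The remaining ATPases Psmc1, Psmc2, Psmc3 and Psmc4 lay between -0.08 and 0.09 log2 and were not called.

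The 3 members that are chaperones for assembly of the base of the cap, Psmd5, Psmd9 and Psmd10, all fell in both comparisons. They leave the finished proteasome, so they are assembly factors rather than subunits. They are not the full set, since Paaf1, listed with the components outside the rule, had no probe set with its symbol alone and was not tested. Psmd9 in control rats had 7.77, 7.54, 7.46 and 7.50 log2 on the normal diet and 6.79, 7.32, 6.91 and 7.10 on the CDAA diet. In hydrogen-treated rats it had 7.57, 7.38, 7.41 and 7.61 on the normal diet and 7.02, 6.90, 6.89 and 6.86 on the CDAA diet. No CDAA rat reached any normal-diet rat, although control CDAA rat 2 came within 0.06 log2 of the nearest. Psmd9 fell by 0.54 ± 0.10 log2 or 1.45-fold in control rats (limma adjusted p = 0.000668) and by 0.57 ± 0.10 or 1.49-fold in hydrogen-treated rats (adjusted p = 0.000282). Its second probe set fell by 0.27 and 0.21 log2.

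Psmd5 had 7.98, 8.10, 8.13 and 7.97 log2 in control and 7.94, 8.00, 8.08 and 8.20 in hydrogen-treated rats on the normal diet, against 7.75, 7.91, 7.73 and 7.67 and 7.74, 7.73, 7.83 and 7.79 on the CDAA diet. It fell by 0.28 log2 in each (adjusted p = 0.00413 and 0.00315), and the diets did not overlap. Psmd10, also known as gankyrin, had 7.63, 7.58, 7.58 and 7.59 log2 in control and 7.73, 7.54, 7.70 and 7.63 in hydrogen-treated rats on the normal diet. On the CDAA diet it had 7.44, 7.20, 7.33 and 7.35 and 7.52, 7.58, 7.28 and 7.19. It fell by 0.26 log2 in each comparison (adjusted p = 0.0173 and 0.0164), with overlap in hydrogen-treated rats through CDAA rat 2. The calls ended without control CDAA rat 2 (adjusted p = 0.0534), and without hydrogen-treated CDAA rat 3 (0.0533) or rat 4 (0.055). Averaged over the 3 genes, the signal lay between 7.64 and 7.81 log2 on the 8 normal-diet arrays and between 7.28 and 7.48 on the 8 CDAA arrays, which did not overlap.

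Among the 11 non-ATPase subunits of the cap, 3 rose and 1 fell in control rats and 1 fell in hydrogen-treated rats. The gene that fell in both was Psmd1, a large scaffold subunit. It had 8.35, 8.37, 8.34 and 8.33 log2 in control and 8.42, 8.30, 8.28 and 8.38 in hydrogen-treated rats on the normal diet, against 8.05, 8.17, 8.25 and 8.21 and 8.08, 8.14, 8.14 and 7.95 on the CDAA diet. It fell by 0.18 (limma adjusted p = 0.0268) and 0.27 log2 (adjusted p = 0.00171), with no overlap of the diets. The call in control rats ended without normal-diet rat 1 (adjusted p = 0.0544), normal-diet rat 2 (0.0635) or CDAA rat 1 (0.0928). Psmd2, the partner scaffold subunit, differed by -0.02 and 0.06 log2 and was not called.

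The 3 rises were modest and seen in control rats. Psmd13, a lid subunit, rose by 0.25 log2 (adjusted p = 0.0208), from 7.55, 7.37, 7.39 and 7.59 log2 to 7.71, 7.66, 7.73 and 7.81, without overlap, a call that ended under both scalings above (adjusted p = 0.102 and 0.0577) and without normal-diet rat 2 (0.0687), rat 3 (0.0625) or CDAA rat 4 (0.0595). Under hydrogen its difference was 0.19 (adjusted p = 0.0648), and CDAA rat 4 at 7.43 log2 lay among the normal-diet rats. Psmd8, a lid subunit, rose by 0.22 log2 (adjusted p = 0.0451), from 9.92, 9.78, 10.04 and 10.02 to 10.24, 9.98, 10.25 and 10.17, with overlap, and this call ended in 12 of 25 alternatives, among them the omission of normal-diet rat 1 or 2 or CDAA rat 1, 3 or 4 (adjusted p = 0.0818 to 0.15). Under hydrogen the difference was 0.01 log2 (95% interval -0.16 to 0.18). Psmd7, a lid subunit that pairs with the deubiquitinase Psmd14, rose by 0.20 log2 (adjusted p = 0.0227, and 0.0718, 0.069 and 0.0704 without normal-diet rat 1, CDAA rat 3 or CDAA rat 4), but its other probe set gave -0.09 (adjusted p = 0.499) and fell by 0.30 in hydrogen-treated rats (adjusted p = 0.0134), so its direction is uncertain. The interaction called none of these 3 genes, so that a difference between control and hydrogen-treated rats was not shown.

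Further lid and receptor subunits Psmd3, Psmd4, Psmd6, Psmd12 and Psmd14 lay between -0.10 and 0.12 log2 in both comparisons and were not called. Psmd14, which cuts ubiquitin off substrates, had a dimmer probe set that fell by 0.27 log2 in hydrogen-treated rats (adjusted p = 0.0124). Psmd11, a lid subunit, differed between its probe sets. The brighter one gave -0.09 (adjusted p = 0.212) and -0.12 log2 (adjusted p = 0.0562), and the next one fell by 0.47 (adjusted p = 0.00183) and 0.61 log2 (adjusted p = 0.000171). The rule that takes the brightest probe set therefore counts Psmd11 as not called.

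The alternative caps and the inhibitor showed little. Psme1, a subunit of the interferon-inducible 11S activator, had 10.63, 10.57, 10.74 and 10.65 log2 in control and 10.59, 10.67, 10.65 and 10.59 in hydrogen-treated rats on the normal diet, and 10.68, 10.66, 10.70 and 10.67 and 10.76, 11.01, 10.82 and 10.49 on the CDAA diet. Its differences of 0.03 and 0.15 log2 (95% intervals -0.14 to 0.20 and -0.03 to 0.32) were not called. Hydrogen-treated CDAA rats 1, 2 and 3 lay above, and rat 4 below, every rat of the other groups. Psme4, the PA200 activator, had 8.42 to 8.53 and 8.51 to 8.63 log2 on the normal diet and 8.56 to 8.65 and 8.44 to 8.72 on the CDAA diet, with differences of 0.11 and -0.01. Psmf1, an inhibitor of the core, fell by 0.20 log2 in control rats (adjusted p = 0.0181), from 9.13, 9.06, 9.15 and 9.13 to 8.81, 9.03, 8.88 and 8.95. In hydrogen-treated rats the difference was -0.15 (adjusted p = 0.053), from 8.99, 9.00, 9.04 and 9.20 to 8.96, 8.92, 8.92 and 8.82. The diets did not overlap in either comparison, and the call in control rats ended without CDAA rat 1 (adjusted p = 0.0632).

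**Figure D4:**
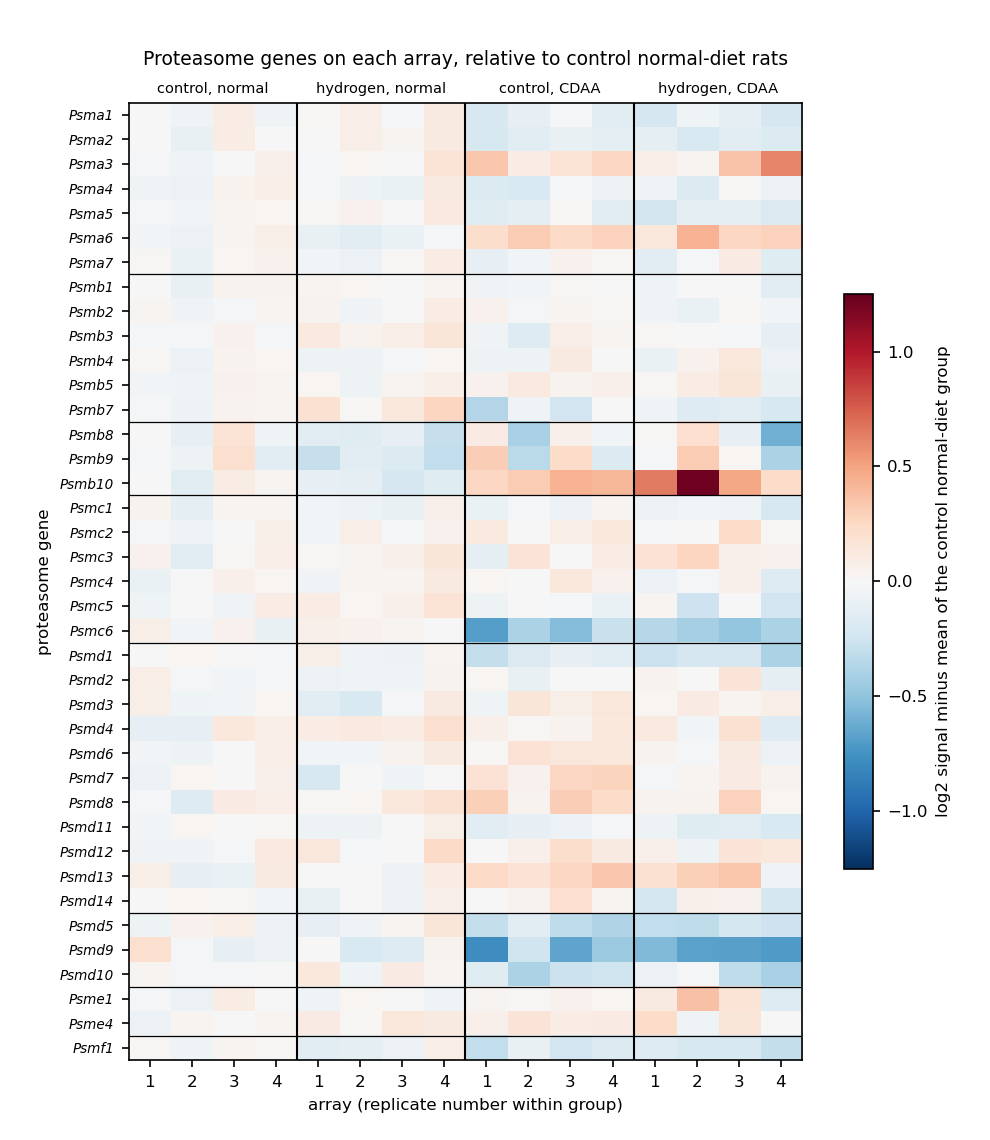
Signal of each member on each array minus the mean of the 4 control rats on the normal diet (colour, log2; rows, 39 members by role; columns, 16 arrays by group). The CDAA columns stand out in few rows, chiefly Psmc6, Psmd9, Psmd5 and Psmd10 (blue) and Psma6 and Psmb10 (red), and the Psmb8 and Psmb9 rows change colour between rats of the same group.

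Hydrogen changed no member detectably on either diet. On the normal diet limma called 0 of 39 members, with 0 at an unadjusted p under 0.05 and a smallest adjusted p of 0.688, where 0.00875% of all genes were called. On the CDAA diet it called 0 of 39, with 1 at an unadjusted p under 0.05 (Psmd7, -0.16 log2, adjusted p = 0.343), where 0.376% of all genes were called. The interaction called 0 of 39 members and 0% of all genes, with 1 member at an unadjusted p under 0.05 (Psmb10, adjusted p = 0.535). The differences ranged from -0.23 (Psmb9) to 0.15 log2 (Psmb7) on the normal diet and from -0.16 (Psmd7) to 0.29 (Psmb10) on the CDAA diet.

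The intervals bound what hydrogen could have done. On each diet 38 of 39 members had a 95% interval within 0.5 log2 of no change, against 92.9% of all genes on the normal diet and 89.1% on the CDAA diet. The exceptions were Psmb9 on the normal diet (-0.54 to 0.08 log2) and Psmb10 on the CDAA diet (-0.01 to 0.59). For Psmb9 the 4 hydrogen-treated rats on the normal diet, at 9.42 to 9.59 log2, all lay below the 4 control rats, at 9.60 to 9.93, with an adjusted p = 0.782. For Psmb10 on the CDAA diet the difference of 0.29 log2 (adjusted p = 0.45) became 0.10 without hydrogen-treated CDAA rat 2 (adjusted p = 0.755) and 0.43 without rat 4 (adjusted p = 0.142).

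Other components of the proteasome, named outside the rule, moved both ways. Of 8 genes tested, 2 rose and 2 fell in control rats and 2 rose and 3 fell in hydrogen-treated rats. The core is built on chaperones in which Psmg1 pairs with Psmg2. Psmg1 fell by 0.32 (limma adjusted p = 0.0116) and 0.39 log2 (adjusted p = 0.00263), while Psmg2 rose by 0.47 (adjusted p = 0.00064) and 0.31 log2 (adjusted p = 0.00839, and 0.126 after the quantile normalization). Psmg4, of the other chaperone pair, rose by 0.39 (adjusted p = 0.000685) and 0.56 log2 (adjusted p = 2.28e-05). Pomp, which guides beta ring assembly, differed by 0.04 and 0.02 log2 and was not called, like the small cap subunit Sem1 at -0.04 and 0.06. Adrm1, a ubiquitin receptor of the cap, gave 0.03 in control rats and fell by 0.15 log2 in hydrogen-treated rats (adjusted p = 0.0396, a call lost in 10 of 25 alternatives). Akirin2, which brings proteasomes into the nucleus, gave -0.03 in control rats and fell by 0.33 log2 in hydrogen-treated rats (adjusted p = 0.0117). Ecpas, a proteasome adaptor, fell by 0.16 log2 in control rats (adjusted p = 0.0441, lost in 16 of 25 alternatives) and gave 0.04 under hydrogen.

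Genes that handle the proteasome's substrates were followed in 4 lists. Over these, 10 of 24 genes rose in control rats (41.7%, against 27.3% of all genes) and 6 of 24 in hydrogen-treated rats (25%, against 32.1%), and 1 fell in each. The same shares of all genes stand behind the lists that follow. Of 4 proteasome-bound deubiquitinases and ligases, 2 rose in both comparisons. These were Usp14, which trims ubiquitin chains at the cap (0.39 log2, adjusted p = 0.000122, and 0.30, adjusted p = 0.000647), and the ligase Ube3c (0.28, adjusted p = 0.000542, and 0.29, adjusted p = 0.000313). Uchl5 and Ubr4 were not called. Of 7 shuttle and receptor genes, 4 rose in control rats and 3 in hydrogen-treated rats and 0 fell, led by Ubqln4, which carries tagged proteins to the proteasome (0.56, adjusted p = 2.8e-05, and 0.44, adjusted p = 0.000127). With arrays centred on the median of the tested probe sets, 2 of these 7 rose and 2 fell in control rats and 1 rose and 2 fell in hydrogen-treated rats. There the calls of Rad23b, a shuttle (0.14 and 0.14 log2, adjusted p = 0.0391 and 0.035), ended at 0.08 and 0.04 log2 (adjusted p = 0.275 and 0.571), as did those of Zfand2a (0.30 and 0.28 log2, adjusted p = 0.0402 and 0.0467, then 0.0939 and 0.174). The mean of its probe sets gave 0.02 and 0.01 log2 for Rad23b. The 4 rises became 2 without control rat 1 or 2 on the normal diet or rat 1, 3 or 4 on the CDAA diet, and the 3 became 1 without hydrogen-treated rat 1, 2 or 3 on the normal diet or rat 3 on the CDAA diet. The E1 enzymes Uba1 and Uba6, which activate ubiquitin, were not called. Of 11 genes of ER-associated degradation, 4 rose and 1 fell in control rats and 1 rose and 1 fell in hydrogen-treated rats, which became 2 and 1 and 0 and 4 both after the quantile normalization and with that centring. The 4 rises became 2 without control rat 1 or 3 on the normal diet or rat 3 or 4 on the CDAA diet. Nploc4, a cofactor of the p97 unfoldase, rose by 0.39 (adjusted p = 0.000968) and 0.27 log2 (adjusted p = 0.00999, and 0.268 and 0.0759 under the scalings above).

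The gene for the factor known to raise proteasome subunits rose as well. Nfe2l1 (NRF1) rose by 0.34 (limma adjusted p = 0.00476) and 0.26 log2 (adjusted p = 0.0204), the latter call ending under both scalings above (0.0827 and 0.117), under the mean of its probe sets (0.246) and without hydrogen-treated rat 1 of either diet (0.0754 and 0.0696). Its small Maf partners Mafk (0.77, adjusted p = 0.000235, and 0.88, adjusted p = 4.72e-05) and Maff (0.77, adjusted p = 0.00945, and 0.75, adjusted p = 0.00885) rose too. Thus 3 of 9 regulators rose in each comparison (33.3%), near the 27.3% and 32.1% of all genes. Vcp, the p97 unfoldase that releases NRF1 from the ER, gave -0.15 (adjusted p = 0.0702) and fell by 0.21 log2 (adjusted p = 0.0118), and Bach1, a repressor at the same elements, fell by 0.12 log2 in hydrogen-treated rats (adjusted p = 0.046, lost in 16 of 24 alternatives). Of 10 enzymes known as targets of the related factor NRF2, 6 rose in control rats, and 5 rose and 1 fell in hydrogen-treated rats. With each array left out in turn, 4 to 7 rose in control rats, and 5 to 7 rose and 0 to 1 fell in hydrogen-treated rats. Gclc, of glutathione synthesis, rose by 0.75 (adjusted p = 9.36e-05) and 0.67 log2 (adjusted p = 0.000161). The median over these 10 enzymes was 0.37 and 0.50 log2, beside the -0.002 and -0.06 over the proteasome members. Of the 7 members with an antioxidant core in the promoter window, Psmd1 and Psmd9 fell in both comparisons and the other 5 were called in neither. Over all 39 members, 6 fell in both and 23 were called in neither, and a relation of this core to the calls was not tested.

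Genes that work with the immunoproteasome moved unevenly. Of 15 interferon regulators and targets, 2 rose and 1 fell in control rats and 3 rose in hydrogen-treated rats. Those 3 became 5 without hydrogen-treated CDAA rat 1 and 6 without rat 3, and the 2 became 4 without hydrogen-treated CDAA rat 2. With each array left out in turn, the 3 ranged from 2 to 6 and the 2 from 2 to 4. In hydrogen-treated rats Gbp2, an interferon target, lost its call after the quantile normalization (adjusted p = 0.109). It lost it too with arrays centred on the median of the tested probe sets (0.0552). The call also ended without hydrogen-treated rat 2 on the CDAA diet (0.116) or rat 1, 3 or 4 on the normal diet (0.0928, 0.0638 and 0.0555). Ifit2, an antiviral target, rose by 1.03 (limma adjusted p = 6.57e-05) and 0.82 log2 (adjusted p = 0.000281). Irf1, the factor that drives immunoproteasome genes, gave 0.15 in control rats (adjusted p = 0.404) and rose by 0.51 log2 in hydrogen-treated rats (adjusted p = 0.00535). Stat2, of interferon signalling, fell by 0.44 log2 in control rats (adjusted p = 0.00204). Of 9 genes of MHC class I presentation, 2 rose and 1 fell in control rats and 3 rose and 2 fell in hydrogen-treated rats. Erap1, which trims peptides in the ER, rose by 0.36 (adjusted p = 0.00611) and 0.61 log2 (adjusted p = 6.8e-05), and Tapbp, which loads them, by 0.22 (adjusted p = 0.042, lost in 13 of 25 alternatives) and 0.36 (adjusted p = 0.00164). The peptide transporter subunit Tap2 gave 0.35 (adjusted p = 0.0987) and rose by 0.55 log2 in hydrogen-treated rats (adjusted p = 0.0105), whereas Tap1 gave -0.20 and -0.14 and was not called. Ptprc, the pan-leukocyte marker, rose by 0.95 (adjusted p = 9.02e-05) and 1.42 log2 (adjusted p = 1.85e-06) beside them. It had the largest rise of the 11 T, B and NK cell markers tested, whose median differences were -0.13 and -0.12 log2. Of these 11, 2 rose and 3 fell in control rats and 2 rose and 2 fell in hydrogen-treated rats. The part of leukocytes in these changes was not tested.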

How the data were processed

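Rat liver RNA was hybridised to Affymetrix RG-230 PM array strips, 1 array per rat, after amplification with a 3′ IVT Express kit, per the labels' protocols. The authors deposited log2 signals, 1 per probe set and array. Per the submitters' processing notes, Affymetrix Expression Console and RMA were used; their versions are not given in the sources used here. RMA subtracts background, equalises the arrays' distributions and summarises each probe set, and a shift common to all transcripts would not show. Scan dates and strip positions are not given in the sources used here.

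From the deposited log2 values, 97 array controls and 8408 probe sets that did not exceed 3.68 log2 (the 30th percentile) on at least 4 arrays were left out of 31139, leaving 22634. limma 3.58.1 in R 4.3.3 fitted 1 mean per group over the 16 arrays, with eBayes, and p-values were adjusted by Benjamini-Hochberg within each contrast. All adjusted p-values of genes are from this fit, and differences are CDAA minus normal diet or hydrogen minus control, with control rats given before hydrogen-treated rats. The platform annotation gives 1 symbol to 19069 probe sets and several to 572, and 11498 are unlisted. Psmb6 had only a probe set with several symbols, so the planned pair Psmb9 and Psmb6 could not be tested. Pairs were tested by exact two-sided permutation, adjusted over 2 pairs. The fit was tested on simulated data. Plots were made in Python 3.11.15 with matplotlib 3.10.9.

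The members and the gene lists were chosen with earlier results of these data known. Array-by-array values are given for called members with the largest differences (up to 4 per class), the immunoproteasome subunits with the subunits they replace and the activator caps. Up to 4 called genes of each other list with the smallest p were eligible to be named, plus every proteasome component outside the rule. Values for Psma3, Psmc5 and Psmd2, the other probe sets, Stat2, Tap1, Tap2, Uchl5, Ubr4, Uba1, Uba6, Vcp, Bach1, Tat, Klrd1 and Sox9 were chosen after they were seen. The replicate numbers were not taken to pair the rats. Of 24 correlations between same-numbered rats, which ran from -0.129 to 0.325, 9 were above 0.1. Without values for differently numbered rats beside them, these correlations cannot decide whether rats were paired. Alternatives changed the scaling, the filter, the probe set rule, the variance model, the arrays fitted and the replicate block, and left out each array.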

Additional observations from a re-analysis of the deposited data

Results flagged for a closer look

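Within a group of 4 rats, a member was listed when its highest or lowest rat lay so far from the next that the gap, as a share of the group's range, exceeded Dixon's 95% critical value. This applied to 7 of the 156 groups checked (39 members in 4 groups), and chance flags about 1 group in 20. In control rats on the normal diet, Psmb3 was high in rat 3 (9.81 log2, next 9.74), Psmc1 low in rat 2 (8.61, next 8.76), Psmd12 high in rat 4 (8.51, next 8.36) and Psmd2 high in rat 1 (9.16, next 9.05). In hydrogen-treated rats on the normal diet, Psmd2 was high in rat 4 (9.12, next 9.02). In hydrogen-treated CDAA rats, Psmc2 (10.12, next 9.91) and Psmd8 (10.23, next 9.98) were both high in rat 3.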

How the results depend on the processing

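Across 330 gene and pair values, each recomputed under up to 25 alternatives, 7717 recomputed values kept their direction where called and their side of the threshold, 310 lost a call, 116 gained one and 2 reversed. Under the mean of all probe sets of a gene, Edem1 in control rats went to 0.02 and Ufd1 to -0.08 log2. Members risen in control rats went from 4 to 2 under a further quantile normalization and to 1 with arrays centred on the median of the tested probe sets, which gave 12 fallen there and, in hydrogen-treated rats, 21 called and 19 fallen. Leaving out each array gave 7 to 13 called, 1 to 6 risen and 4 to 7 fallen members in control rats, and 11 to 14, 2 to 4 and 8 to 12 in hydrogen-treated rats. Hydrogen and the interaction called 0 members under every alternative. Psma6, Psmc6, Psmd5 and Psmd9 in both diet comparisons, and Psma1, Psma2, Psma5, Psmb7, Psmb10 and Psmd1 in hydrogen-treated rats, were called under all 25. The replicate block gave 10 called members in control rats and 13 in hydrogen-treated rats, and changed no count by over 1.5 times. Precision is limited by 4 arrays a group.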
